A study of Mus musculus with 12 samples.

Results

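The hearts of mice lacking Cited4 in cardiomyocytes (KO) were compared with hearts of mice carrying floxed Cited4 alleles (Flox), averaged over the 2 treatments of the study. All 12 libraries of the series entered, 6 KO and 6 Flox, and within each genotype 3 libraries were labelled sedentary and 3 labelled exercise. Attention was on genes whose KO and Flox libraries did not overlap under either label and differed in the same direction, of which there were 184 among 15226 genes tested. The treatment word and the letter of the bracketed code in each title disagree, with E beside sedentary and S beside exercise, so the treatments are written as labelled. A contrast averaged over both treatments takes the same value whichever reading holds.

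Flox mice carried CITED4 flox/flox alleles without a stated cre. KO mice descended from a cross of those animals with aMHC-cre mice, in which the alpha myosin heavy chain promoter drives the recombinase in heart muscle cells. Animals of both genotypes spent 8 weeks sedentary or with a running wheel for voluntary use. The groups hold no cre carriers with intact Cited4 alleles, so that loss of the gene and presence of the transgene cannot be told apart. Whole hearts were frozen, so atria, vessels, epicardium and attached fat could enter a sample besides ventricular muscle, and a smaller number of cells of a type cannot be told apart from less RNA per cell. Sex and age of the animals are not given in the labels used here. Nor do they tie a library to an animal, so the p-values speak only of how these samples scatter.

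Cited4 belongs to the CITED family of transcriptional coregulators, small proteins without a DNA-binding domain of their own. They bind the CH1 region of the acetyltransferases CBP and p300 and so alter how DNA-bound factors such as AP-2 and HIF-1 alpha work with those enzymes. In the mouse heart Cited4 is known from studies of exercise, in which its level rises and is linked to physiological growth of the muscle.

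Total counts ranged from 17465432 to 20467300 a library, of which 20.95% to 27.25% fell on the 13 genes of the mitochondrial genome. Levels below are CPM, the counts of a gene over a common library size, with sizes scaled by TMM, a method that trims the genes differing most, and differences are log2 KO over Flox from 1 edgeR fit over the 4 groups. The defining genes of heart muscle were present throughout: none of the 24 ventricular and general cardiomyocyte markers was at 0 in all libraries, nor was any of the atrial or adipocyte markers. Atrial and fat cell RNA was uneven between libraries. The 19 atrial markers summed to between 1150 and 6840 CPM in Flox, 3080 to 26700 in KO hearts labelled sedentary and 1460 to 5260 in KO hearts labelled exercise. Of 20 adipocyte markers 19 were tested, and their mean log2 level lay between 4.12 and 4.76 in the KO labelled sedentary libraries against 1.61 to 2.44 in the other 9. Libraries 2 and 3 of KO labelled sedentary stood apart from the rest, with atrial mean log2 levels of 7.19 and 7.74 and the highest scores on the first principal component. Results are therefore given with both of them left out, and with each marker mean as a covariate, where that changes a call. Leaving both out leaves KO labelled sedentary 1 as the only library of its group, so that setting rests on 1 library there. The adipocyte mean averaged 4.36 in KO labelled sedentary and 1.98 to 2.27 in the other groups, with SDs of 0.08 to 0.41. A fit with it as a covariate takes its slope from that spread within groups. Such a fit cannot tell fat cell RNA and genotype apart under the sedentary label.

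Cited4 itself (chr4:120666572-120667820, plus strand, GRCm38) was nearly absent from KO hearts. Flox labelled sedentary libraries held 276, 192 and 295 counts and Flox labelled exercise libraries 406, 261 and 431. The KO labelled sedentary libraries held 5, 2 and 0 counts, and the KO labelled exercise libraries 3, 0 and 0. No KO library approached the lowest Flox library. The 10 counts of all KO libraries were 0.521% of the 1861 in Flox when scaled by library size (exact 95% interval 0.25% to 0.961%, counting error only). The fitted difference was -7.67 ± 0.41 (SE, edgeR adjusted p = 7.79e-06), and it passed in all 25 alternative settings, between -9.26 and -7.11.

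An entry outside the mouse genes marked the KO libraries just as sharply. Counts assigned to a phagemid vector were 889, 818 and 732 in KO hearts with the sedentary label and 610, 780 and 567 in those with the exercise label, against 0, 5, 3, 8, 1 and 6 in Flox. In CPM on unscaled totals the entry stood at 37.2 ± 5.67 (SD, n = 6) in KO and 0.197 ± 0.161 (n = 6) in Flox, with no overlap. It was singled out after these values were seen, among 1696 entries naming vectors, phages, adaptors or linkers. An exact permutation test within labels (two-sided, p = 0.005, the smallest its 400 arrangements allow) therefore had a fixed outcome and lends no support. The mean of the entry was 40.9 ± 4.1 CPM in the KO labelled sedentary libraries and 33.4 ± 4.72 CPM in the KO labelled exercise ones (SD, n = 3), with ranges that overlapped. The exact permutation test of that gap gave p = 0.2 (two-sided), and with 3 against 3 it cannot go below 0.1. Which part of the vector the reads match was not tested.

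The RefSeq windows upstream of 3 of the genes described here are shown because they lie beside the genes whose RNA separated the genotypes: the deleted gene and 2 genes that rose in KO. Each is the 250 bases before the annotated start (GRCm38.p6), 5′ to 3′ on the gene's plus strand, and capitals mark the CCAAT box, the TATA sequence TATAAA and the C/EBP-type sequence TTNNGNAA, on either strand. They are Cited4, chr4:120666313-120666562, then Phlda3, chr1:135765835-135766084, then Atp6v0e2, chr6:48537319-48537568.
Cited4: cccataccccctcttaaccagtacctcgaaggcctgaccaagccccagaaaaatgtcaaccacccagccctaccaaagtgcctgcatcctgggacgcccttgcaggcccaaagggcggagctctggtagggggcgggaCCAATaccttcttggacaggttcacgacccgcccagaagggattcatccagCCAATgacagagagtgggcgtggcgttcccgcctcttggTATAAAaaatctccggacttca
Phlda3: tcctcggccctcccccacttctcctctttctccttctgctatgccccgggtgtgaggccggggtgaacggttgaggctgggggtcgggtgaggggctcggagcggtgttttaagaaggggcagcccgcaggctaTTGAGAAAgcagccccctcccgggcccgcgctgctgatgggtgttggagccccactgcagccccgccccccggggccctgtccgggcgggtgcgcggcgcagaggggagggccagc
Atp6v0e2: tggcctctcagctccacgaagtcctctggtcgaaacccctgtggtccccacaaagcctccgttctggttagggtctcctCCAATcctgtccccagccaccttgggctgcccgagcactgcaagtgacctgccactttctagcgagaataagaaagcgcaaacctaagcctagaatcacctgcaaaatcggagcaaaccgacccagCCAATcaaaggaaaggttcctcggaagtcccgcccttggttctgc
The Cited4 window holds 2 CCAAT matches and a TATAAA match close to the start. The Phlda3 window holds 1 match to TTNNGNAA and none to CCAAT or to the sequence TATAAA. The Atp6v0e2 window holds 2 CCAAT matches and no TATAAA. None of the 3 windows contains GCCNNNGGC (AP-2), ACGTG (HIF core), TGACGTCA or the p53 half-site, which says only that these letters are not in these 250 bases.

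An adjusted p of 0.05 was passed by 8 genes, 5 higher and 3 lower in KO, which is 0.0525% of the genes tested (0.0328% higher, 0.0197% lower). At an unadjusted p under 0.05 there were 1770 genes, or 11.6%. Within the sedentary label alone 19 genes passed (0.125%) and within the exercise label 1 (0.00657%), Cited4. Cited4 and Ttll1, a tubulin glutamylase subunit, were among those that fell. Phlda3, Atp6v0e2 and Ccnd2 rose, as did Cyp2e1 and Cidec. Cited4, Ttll1, Phlda3, Atp6v0e2 and Ccnd2 were without overlap under both labels, while Cyp2e1 and Cidec were not. The count of 8 became 172 with DESeq2, 49 with no filter on low counts, 2 with additive terms for genotype and treatment or with the atrial mean as a covariate, and 1 with the adipocyte mean as a covariate. Leaving out Flox labelled sedentary 2 gave 4 genes. With additive terms, Ttll1, Phlda3, Atp6v0e2, Ccnd2, Cyp2e1 and Cidec all lost the call (adjusted p from 0.0621 to 0.266). With KO labelled sedentary 1 removed the count was 34, as it was with KO labelled exercise 2 removed. The count was 5 on removal of KO labelled sedentary 3 or of KO labelled exercise 3, all of them among the main 8.

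**Figure D1:**
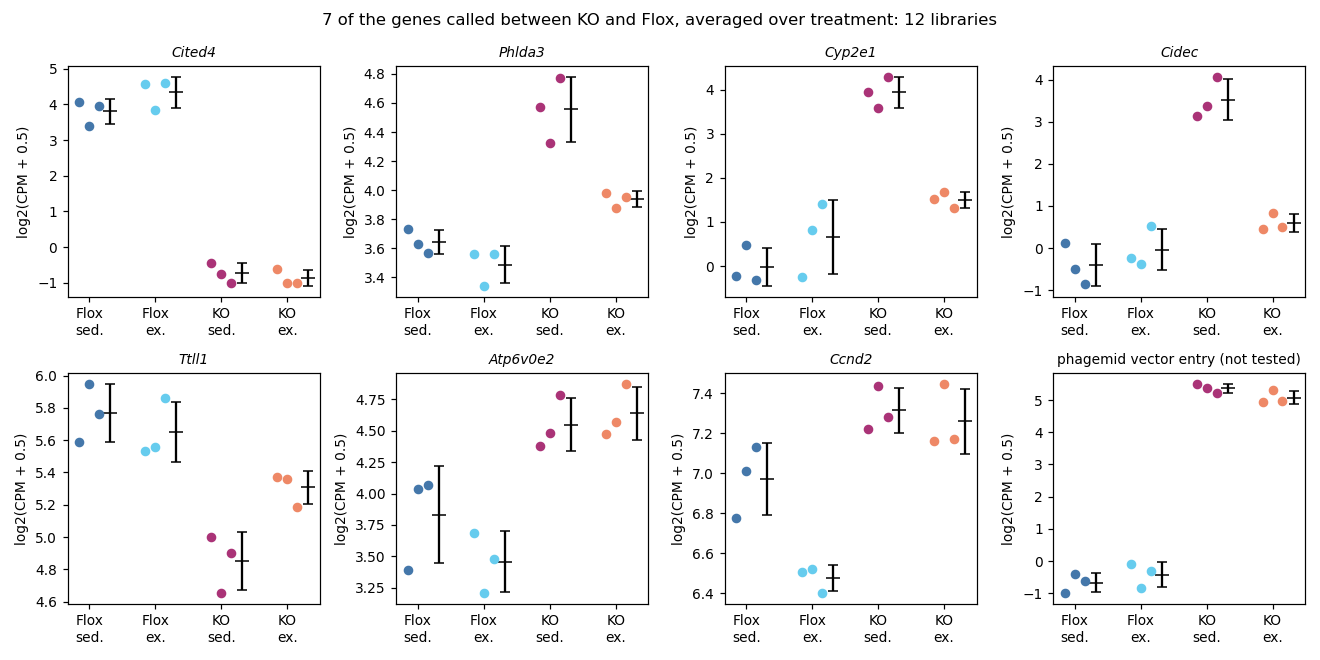
Level of 7 of the genes passing an adjusted p of 0.05, and of the phagemid vector entry, in each of the 12 libraries as log2(CPM + 0.5); bars give the mean and SD of 3 libraries. KO and Flox points are apart under both labels for Cited4, Phlda3, Ttll1, Atp6v0e2 and Ccnd2, whereas Cyp2e1 and Cidec overlap under the exercise label.

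Of 12 genes tested within 1 Mb of Cited4, none passed and none was without overlap under both labels. Chromosome 4, which carries Cited4, held 14 non-overlapping genes among 913 tested (1.53%), within the range of the other autosomes, which ran from 0.706% on chromosome 9 to 2.01% on chromosome 3.

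Ttll1 encodes the catalytic subunit of a tubulin polyglutamylase, an enzyme that adds glutamate chains to microtubules. Its level was 47.7, 61.3 and 53.8 CPM in Flox labelled sedentary and 45.8, 46.6 and 57.7 in Flox labelled exercise. In KO it was 31.6, 24.7 and 29.4 CPM where labelled sedentary and 41, 40.6 and 36 where labelled exercise. All KO values were below all Flox values, and the KO labelled sedentary libraries were the lowest. The fall was -0.64 ± 0.09 (adjusted p = 0.0197), with -0.93 ± 0.13 under the sedentary and -0.35 ± 0.13 under the exercise label (interaction, adjusted p = 0.412). Leaving out any of Flox labelled sedentary 2 or 3, KO labelled sedentary 2 or 3, or KO labelled exercise 1 or 3 ended the call, with adjusted p from 0.0576 to 0.0744 and differences from -0.66 to -0.59. The call was also lost with the atrial mean as a covariate (-0.58, adjusted p = 0.306), with the adipocyte mean (-0.81, adjusted p = 0.304) and without KO labelled sedentary 2 and 3 together (-0.57, adjusted p = 0.19). Of 29 genes for tubulin modification and microtubule proteins, 16 were higher and 13 lower, and Ttll1 alone passed. Ttll4, a related ligase, was at -0.22 ± 0.07 (adjusted p = 0.277), and the microtubule-associated Map1b was at 0.49 ± 0.09 (adjusted p = 0.109) with most of it under the sedentary label (0.95 against 0.03).

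Phlda3 encodes a small pleckstrin-homology protein, a target of p53 that competes with AKT for membrane lipids. Flox libraries labelled sedentary stood at 12.8, 11.9 and 11.4 CPM, those labelled exercise at 11.3, 9.62 and 11.3. KO libraries stood at 23.3, 19.5 and 26.8 CPM and at 15.3, 14.2 and 15 in the same order of labels. The 6 Flox values lay close together and all KO values were above them. The rise was 0.71 ± 0.09 (adjusted p = 0.0107), or 0.95 ± 0.12 and 0.47 ± 0.13 under the 2 labels (interaction, adjusted p = 0.454). The call held without each of the 12 libraries in turn. Without KO labelled sedentary 2 and 3 together the difference was 0.71. With the adipocyte mean as a covariate the difference was 0.30 (adjusted p = 0.643), and with the atrial mean it was 0.74 (adjusted p = 0.0628).

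Of the 25 p53 targets tested, Phlda3 among them, Phlda3 alone passed. In all, 18 were higher and 7 lower with a median of 0.12, against a median of 0.0018 over all genes. Trp53inp1, a stress-induced regulator of autophagy, was at 0.31 ± 0.09 (adjusted p = 0.243). Cdkn1a, the p21 inhibitor of cyclin-dependent kinases, was at 0.28 ± 0.30 (adjusted p = 0.773), and Mdm2, the ubiquitin ligase of p53, at 0.14 ± 0.07 (adjusted p = 0.444).

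Atp6v0e2 encodes a small membrane subunit of the vacuolar proton pump, which acidifies lysosomes and endosomes. Flox libraries labelled sedentary were at 9.98, 15.9 and 16.3 CPM, those labelled exercise at 12.4, 8.73 and 10.6. KO libraries were at 20.3, 21.9 and 27.1 CPM and at 21.7, 23.3 and 28.8. The KO libraries of both labels covered about the same range, all above Flox. The rise was 0.97 ± 0.14 (adjusted p = 0.0197), with 0.71 ± 0.19 and 1.22 ± 0.20 under the 2 labels (interaction, adjusted p = 0.54). Leaving out Flox labelled sedentary 2, Flox labelled exercise 2 or 3, KO labelled sedentary 2 or 3, or KO labelled exercise 3 gave 0.89 to 1.01 with adjusted p from 0.0534 to 0.0723. The difference was 0.91 with the atrial mean as a covariate (adjusted p = 0.31), 1.24 with the adipocyte mean (adjusted p = 0.307) and 0.87 without KO labelled sedentary 2 and 3 together (adjusted p = 0.195), none of which passed. Among 19 pump genes tested 16 were higher, with a median of 0.10, and Atp6v0e2 alone passed. With the adipocyte mean as a covariate 10 were higher (median 0.03), and with the atrial mean 16 (median 0.08). Without KO labelled sedentary 2 and 3 it was 14 (median 0.04). Atp6v0e, the paralog of Atp6v0e2, was at 0.13 ± 0.11. Atp6v1d, a subunit of the cytosolic rotor, was without overlap under both labels, at 60.5 to 69.6 CPM in Flox and 70.6 to 82.8 in KO, with a difference of 0.20 ± 0.07 that did not pass (adjusted p = 0.301).

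Ccnd2 encodes cyclin D2, which with CDK4 or CDK6 drives entry into the cell cycle and is known to permit cardiomyocyte DNA synthesis when forced on in mice. Flox libraries labelled sedentary stood at 109, 129 and 140 CPM, those labelled exercise at 90.3, 91.5 and 84. KO libraries stood at 149, 173 and 155 CPM and at 143, 174 and 143. The Flox labelled exercise libraries were the lowest, and the highest Flox library was only just below the lowest KO library. The rise was 0.57 ± 0.09 (adjusted p = 0.0315), with 0.34 ± 0.12 and 0.79 ± 0.12 under the 2 labels (interaction, adjusted p = 0.462). It was the least stable of the calls: it passed in 10 of 25 settings, and of the 12 single libraries only KO labelled sedentary 1 and KO labelled exercise 2 could be left out without losing it (adjusted p from 0.0501 to 0.126 without the others, differences from 0.52 to 0.61). It did not pass with the atrial mean (0.55, adjusted p = 0.306) or the adipocyte mean as a covariate, where the difference was larger at 0.92 (adjusted p = 0.246), nor without KO labelled sedentary 2 and 3 together (0.52, adjusted p = 0.221). An antisense transcript overlapping the gene, Gm43126, averaged 1.42 CPM, and counts of the 2 cannot be told apart if the counting ignored strand.

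The rest of the cell cycle machinery did not follow Ccnd2. Of 19 genes for D-type cyclins, their kinases and inhibitors, 10 were higher and 9 lower with a median of 0.03, and Ccnd2 alone passed. Ccnd1 was at -0.15 ± 0.14 and Ccnd3 at 0.12 ± 0.07, with Cdk4 at -0.02 ± 0.08 and Cdk6 at -0.07 ± 0.13. E2f3, a transcription factor of S-phase entry, was without overlap under both labels at 0.16 ± 0.09 (adjusted p = 0.521). Of 27 mitosis and proliferation genes 11 were higher and 16 lower with a median of -0.11, none of them passing, and 7 had the same sign under both labels. Their median was 0.14 under the sedentary and -0.30 under the exercise label. With the atrial mean as a covariate 23 were lower (median -0.32), and with the adipocyte mean 20 (median -0.30). Without KO labelled sedentary 2 and 3 their median was -0.09.

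Cyp2e1, a cytochrome of ethanol and fatty acid oxidation, and Cidec, a lipid droplet protein of fat cells, rose on average and were not shared by the labels. Cyp2e1 was at 15, 11.5 and 18.9 CPM in KO labelled sedentary and at 0.354, 0.893 and 0.303 in the matching Flox libraries. Under the exercise label it was at 2.37, 2.68 and 1.97 CPM in KO and at 0.342, 1.26 and 2.16 in Flox, where the groups overlapped. Its average of 2.87 ± 0.35 (adjusted p = 0.0108) combined 4.85 ± 0.51 with 0.89 ± 0.47 (interaction, adjusted p = 0.279). Cidec likewise averaged 3.17 ± 0.40 (adjusted p = 0.0108) from 5.36 ± 0.57 and 0.99 ± 0.57 (interaction, adjusted p = 0.279). No interaction passed adjustment in edgeR, 0.279 being its smallest adjusted p, although 1505 genes had an unadjusted one under 0.05 and DESeq2 called 50.

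Both genes are on the adipocyte list, whose mean was highest in the same 3 libraries. With that mean as a covariate Cyp2e1 was at 1.35 (adjusted p = 0.581) and Cidec at 0.64 (adjusted p = 0.746). With the atrial mean they were at 2.96 and 3.42 (adjusted p = 0.0628 for each). Since both genes enter the adipocyte mean, that covariate removes part of their own difference by construction. Without KO labelled sedentary 2 and 3 they were at 2.87 (adjusted p = 0.0599) and 2.93 (adjusted p = 0.0681), and without Flox labelled sedentary 2 Cidec was at 3.10 (adjusted p = 0.0742). Of the 19 adipocyte genes tested, 14 were higher, and the median was 4.28 under the sedentary and 0.40 under the exercise label. None of the 19 was without overlap under both labels, a rule that 1.21% of all genes tested met. The part of attached fat in these 2 genes was not tested.

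**Figure D2:**
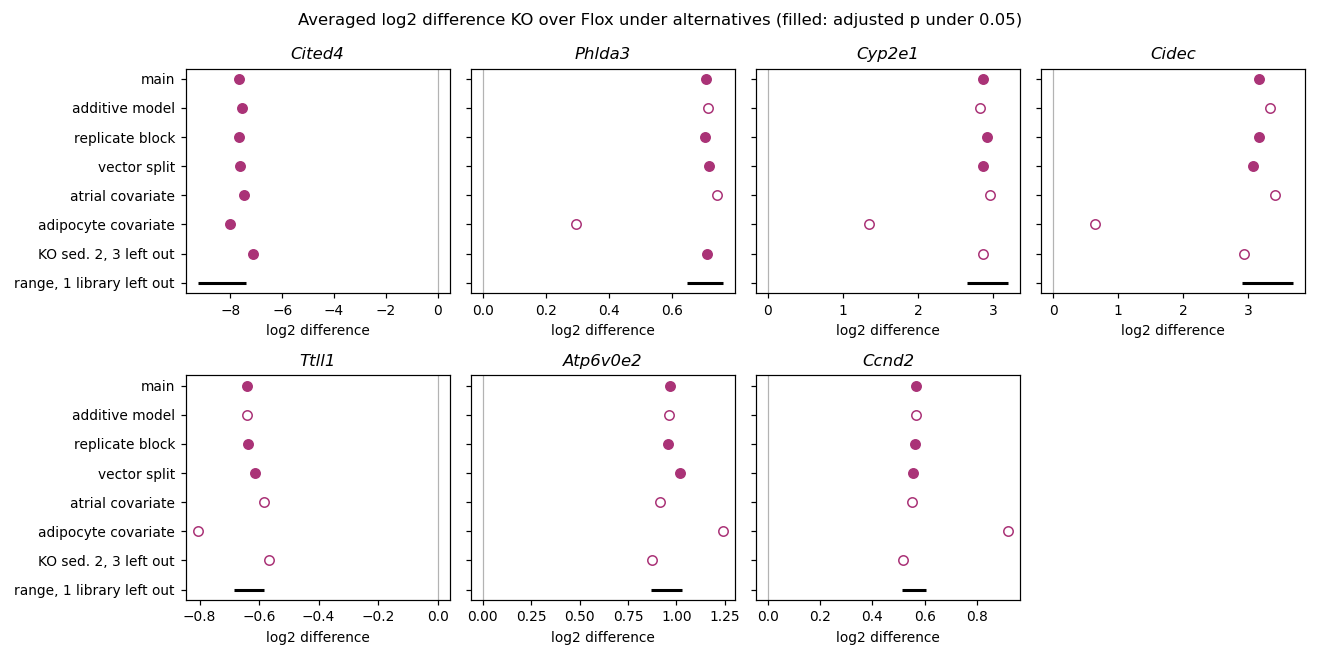
Averaged log2 difference of 7 of the passing genes under 7 settings, filled where the adjusted p is under 0.05, with a bar for the range over 12 fits that each leave out 1 library. Cited4 is filled in every row, and the adipocyte covariate moves Phlda3, Cyp2e1 and Cidec toward 0.

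One vector entry other than the phagemid held 14311 to 32744 counts in 7 libraries (4 Flox, 3 KO) and at most 1 in the other 5 (2 Flox, 3 KO). The labels do not name this split, and both genotypes are on either side of it. In the libraries with those counts, the difference of mean log2(CPM + 0.5) was -0.59 for Ttll1, 0.59 for Phlda3, 0.76 for Atp6v0e2 and 0.42 for Ccnd2. In those without, it was -0.60, 0.79, 1.32 and 0.74 in the same order. Cyp2e1 and Cidec gave 1.93 and 1.63 with the counts, 2.88 and 2.90 without. These 6 genes kept their direction on both sides. With the split as a term, which was added after the data were seen, 16 genes passed, the main 8 among them.

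The 184 genes without overlap under both labels are described here without a test, since the values that chose them are those of the genotype contrast itself. They were 1.21% of the genes tested, 87 higher (0.571%) and 97 lower (0.637%) in KO, and 174 of them had an unadjusted p under 0.05. In 70 genes, 0.46% of those tested, no KO library overlapped any Flox library across the labels, 31 higher and 39 lower. Most differences were small. The higher genes had a median of 0.36 and the lower ones -0.37. Only 46 of 184 were past 1.5-fold and 14 past 2-fold. Levels of the 184 moved with both marker means over the 12 libraries: 126 of them (68.5%) had a Pearson correlation with the atrial mean past 0.5 in either direction, against 27.8% of all genes tested, and 118 (64.1%) with the adipocyte mean, against 22.15% of all. These values share their libraries and genotype with the rule that chose the genes, and the part of atrial and fat cell RNA in the set was not tested.

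The difference was larger under the sedentary label in 106 of the 184 genes and under the exercise label in 78. The share larger under the sedentary label was 57.6%, near the 54.0% of all genes tested. In 6 of the 184 (Ttll1, Ccnd2, Phlda3, Fasn, Pon1 and Gm48271) the interaction had an unadjusted p under 0.05, none below an adjusted 0.393. Across all 15226 genes the differences under the 2 labels, which come from separate libraries, had the same sign in 7677 (50.4%), with a Pearson correlation of 0.149 and a Spearman correlation of 0.043 across genes, which are not independent replicates.

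**Figure D3:**
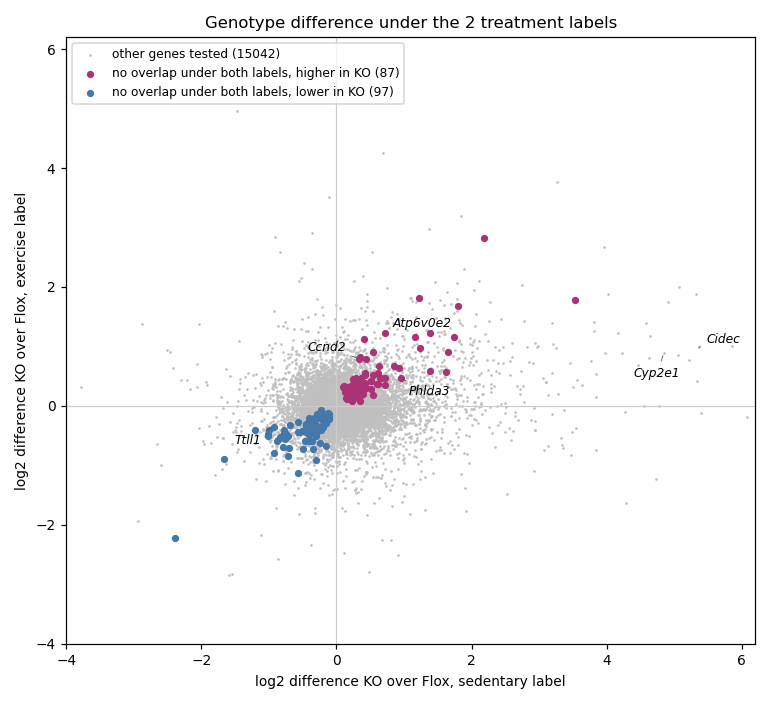
Each point is a gene tested, with its log2 difference KO over Flox under the sedentary label (x) against that under the exercise label (y); 22 genes lie outside the axes, Cited4 among them. The 87 and 97 non-overlapping genes sit in the upper right and lower left by their definition, while Cyp2e1 and Cidec lie far out on the x axis.

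**Figure D4:**
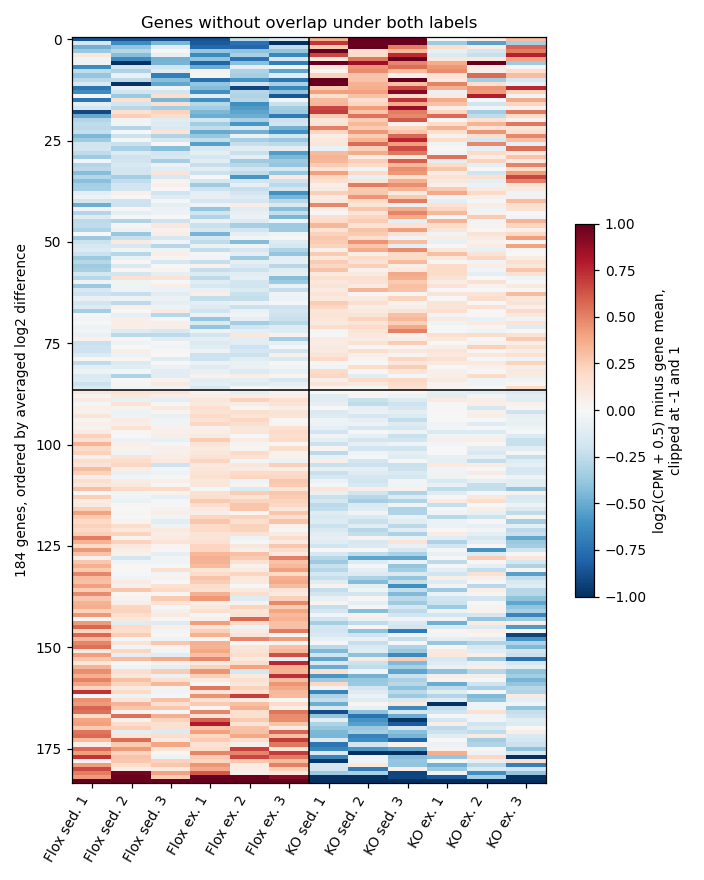
Rows are the 184 non-overlapping genes and columns the 12 libraries; colour is log2(CPM + 0.5) minus the gene's mean over the libraries, clipped at -1 and 1. The columns KO labelled sedentary 2 and 3 carry the deepest colours among the higher genes. The median log2 difference of the higher genes was 0.39 under the sedentary and 0.33 under the exercise label. That of the lower genes was -0.34 and -0.36.

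Membership was sharp at the edge only by definition. Among genes of at least 10 CPM, the members nearest to overlap were Gm49015, a noncoding gene, and Zc3hc1, a nuclear pore-associated protein, whose genotypes were 0.0001 and 0.0014 apart on the log2 scale in the tighter label. The genes nearest from outside were Rcc1l and Mfsd6, which overlapped by 0.0004 and 0.0006. With RLE size factors in place of TMM 183 genes met the rule, and 168 of the 184 were among them. Without the mitochondrially encoded genes 187 met it, 166 of them shared with the 184.

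The members resembled the other genes tested in level, with a median of 18 CPM against 13.5, and 169 of 184 averaged at least 1 CPM. Protein-coding genes made up 94.3% of the higher members, 80.4% of the lower members and 89.8% of all genes tested. The lower members included 16 long noncoding RNAs and the higher members 4. Few lay side by side. The closest pair, Fitm1 and Emc9 on chromosome 14, starts 5.9 kb apart on opposite strands, and both members of the pair were lower.

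Promoter letters were near those of other genes. A RefSeq window was found for 143 of the 184 members and for 11176 of the genes tested, and both strands were searched. CCAAT stood in 43.2% of the higher, 33.3% of the lower and 36.1% of all windows. GCCNNNGGC stood in 21.6%, 27.5% and 20.3%, TTNNGNAA in 33.8%, 27.5% and 28.2%, and ACGTG in 24.3%, 21.7% and 21.4% of the same sets. TATAAA was in 4.05% of the higher and 10.1% of the lower windows against 6.72% of all, that is in 3 and 7 genes. TGACGTCA was in 1 gene of each direction. The p53 half-site was in 8.11%, 2.9% and 5.95%. The median GC content was 58.4%, 60% and 59.6%.

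Among higher members that did not pass adjustment, Ankrd1, Ddr1 and Sulf2 had the smallest p. Ankrd1 encodes a titin-bound ankyrin repeat protein that responds to stretch. It stood at 593, 793 and 801 CPM in Flox labelled sedentary, 595, 748 and 691 in Flox labelled exercise, 1209, 1209 and 1719 in KO labelled sedentary, then 867, 1225 and 1070 where KO was labelled exercise. All KO libraries were above all Flox libraries, and the difference was 0.78 ± 0.13 (adjusted p = 0.0803), with 0.92 and 0.64 under the 2 labels. Ddr1, a collagen-activated receptor kinase, was at 17.3 to 23.9 CPM in Flox (median 22.1) and 24.9 to 37.1 in KO (median 30.8), a difference of 0.49 ± 0.09 (adjusted p = 0.085). Sulf2, which removes sulfate from heparan sulfate chains outside the cell, was at 40.4 to 52 CPM in Flox (median 48.3) and 58.3 to 80.5 in KO (median 63.3), or 0.48 ± 0.09 (adjusted p = 0.114).

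Pbxip1, a partner of PBX homeodomain factors, had a median of 98.1 CPM in Flox and 137 in KO (0.47 ± 0.09, adjusted p = 0.114), and its ranges of 89.3 to 113 and 111 to 165 touched across the labels. Klhdc7a, a kelch domain gene, had 2.73 to 6.44 CPM in Flox and 5.07 to 15 in KO (1.30 ± 0.26, adjusted p = 0.136). Pisd-ps1, C030037D09Rik and Cryzl2 lay between 0.48 and 0.59. Apoc1, an apolipoprotein, was under 0.5 CPM in every Flox library, at 1.3, 3.18 and 6.98 CPM in KO labelled sedentary and 0.258 to 0.373 in KO labelled exercise. Its fitted difference was 2.66 ± 0.54 (adjusted p = 0.114), and the KO labelled sedentary libraries were the highest. Pisd-ps1 is a pseudogene, and its counts may be shared with its parent gene.

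Lower members with small p included Fitm1, which helps triglyceride enter lipid droplets in muscle. It was at 124, 108 and 98.1 CPM in Flox labelled sedentary and 93.1, 98.2 and 109 in Flox labelled exercise, against 68.1, 67.4 and 70 and then 89.2, 86.4 and 63.5 in KO. No libraries overlapped, and the difference was -0.51 ± 0.09 (adjusted p = 0.114). Its neighbour Emc9, a subunit of the membrane insertion complex of the endoplasmic reticulum, was at 28 to 35.6 CPM in Flox and 19.9 to 27.6 in KO (-0.40 ± 0.09, adjusted p = 0.136). Emc9 overlaps Psme1 on the other strand, which was at -0.23.

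Gm48271, a noncoding gene, was at 12.7 to 19 CPM in Flox and 7.24 to 12 in KO (-0.74 ± 0.13, adjusted p = 0.0824). Myo5c, an unconventional myosin of vesicle transport, was at -0.68 ± 0.13. Dcakd, named for a dephospho-CoA kinase domain, was at -0.66 ± 0.13. Immp2l, a peptidase of the inner mitochondrial membrane, was at -0.74 ± 0.15, with 8.88 to 13.9 CPM in Flox and 4.57 to 8.35 in KO. Each of these 3 had an adjusted p of 0.114. Amph, the membrane-bending amphiphysin, was at 1.21 to 2.68 CPM in Flox and 0.365 to 1.08 in KO (-1.28 ± 0.28, adjusted p = 0.136). The read-through gene Gm28042 was at -0.54 ± 0.11 and 2310039L15Rik at -0.70 ± 0.15, and the genes that Gm28042 spans, Jmjd7 and Pla2g4b, were at 0.03 and -0.04, so its estimate depends on how reads were divided.

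A few members outside the naming rule were chosen after their values were seen. Fbp2, the muscle fructose bisphosphatase, was at 25.2, 21.9 and 19 CPM in Flox labelled sedentary and 26.4, 26.4 and 30.7 in Flox labelled exercise. In KO it was at 16.9, 8.19 and 7.81 and at 24.2, 18 and 16.7 CPM (-0.76 ± 0.18, adjusted p = 0.203), with libraries 2 and 3 of KO labelled sedentary lowest. Mhrt, a noncoding RNA read from the strand opposite the cardiac myosin genes, was at 73.7 to 109 CPM in Flox and 38.2 to 73.9 in KO (-0.43 ± 0.15, adjusted p = 0.321). Myh6, whose promoter drives the cre, was at -0.11 ± 0.09 and Myh7 at 0.21 ± 0.38, and without a stated strand setting the counts of Mhrt and Myh7 are uncertain. Sfpq and Nono, which form a dimer in paraspeckles, lay on opposite sides: Sfpq was lower (-0.25 ± 0.07, adjusted p = 0.22) and Nono higher (0.14 ± 0.07, adjusted p = 0.438). The ligand-activated factor Ahr was at 9.99 to 14.2 CPM in Flox and 7.57 to 9.94 in KO (-0.45 ± 0.10, adjusted p = 0.158).

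The largest fitted values belonged to genes near the detection limit. Pon1, a lipoprotein-bound paraoxonase of liver, had no count in any Flox labelled sedentary library and 0, 0.263 and 0.332 CPM in Flox labelled exercise. KO libraries were at 0.675, 1.43 and 3.38 CPM and at 0.412, 0.465 and 0.64, and its fitted difference depends on the prior count, so no fold is given. Il11ra2, a receptor-like copy of the interleukin 11 receptor gene, was at 0 to 0.303 CPM in Flox and 0.413 to 1.48 in KO (2.51 ± 0.57, adjusted p = 0.166), and near-identical copies of this gene make its counts uncertain. Stra6, Gng8, Slc6a7 and Wscd2 were likewise higher and averaged under 1.2 CPM in KO.

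The most uniform direction among the gene lists was in the respiratory chain. All 64 nuclear-encoded subunits tested were lower in KO on average, with a median of -0.25, of -0.33 under the sedentary and -0.18 under the exercise label, and 57 had the same sign under both. None passed adjustment, and 33 had an unadjusted p under 0.05, where the share over all genes was 11.6% in either direction. Cox7a1, the heart and muscle form of a cytochrome oxidase subunit, was the only one without overlap under both labels, a rule met by 1.21% of all genes tested. Its level was 689, 583 and 518 CPM, then 637, 575 and 895 in Flox, and 359, 388 and 465, then 562, 562 and 425 in KO (-0.50 ± 0.13, adjusted p = 0.211). The ATP synthase subunit Atp5g3 went from 1175 ± 133 to 937 ± 183 CPM (-0.34 ± 0.11, adjusted p = 0.273), and the complex I subunit Ndufb10 from 440 ± 54.1 to 361 ± 48.3 (-0.29 ± 0.09, adjusted p = 0.286). The 13 mitochondrially encoded genes had a median of -0.16, 12 of them lower.

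The libraries with the highest atrial means, KO labelled sedentary 2 and 3, enter these counts. Without them 60 of the 64 genes were lower with a median of -0.30, but only KO labelled sedentary 1 then stands for its group. That library had the lowest mean log2 level of these genes among the 12 libraries, 8.48. Under the sedentary label the KO means of 8.48, 8.56 and 8.72 lay below the Flox means of 9.04, 8.95 and 8.79. Under the exercise label they overlapped, with 8.89, 9.03 and 8.66 in KO and 8.92, 8.86 and 9.24 in Flox. With the atrial mean as a covariate 59 were lower (median -0.15), and with the adipocyte mean 62 (median -0.79).

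Genes of fatty acid uptake and oxidation were lower in 31 of 33, with a median of -0.19, of -0.41 and -0.04 under the sedentary and exercise labels. None passed and none was without overlap under both labels, as 1.21% of all genes tested were. Etfb, an electron carrier of beta oxidation, was at 564 ± 57 CPM in Flox and 441 ± 74.9 in KO (-0.37 ± 0.09, adjusted p = 0.211), and Fabp3, the heart fatty acid binding protein, at -0.33 ± 0.12 (adjusted p = 0.312). Of the 24 glycolysis and glucose uptake genes 15 were lower with a median of -0.07, of -0.17 and 0.07 under the sedentary and exercise labels. With the atrial mean as a covariate 11 were lower (median 0.03), and with the adipocyte mean 12 (median 0.0009). Without KO labelled sedentary 2 and 3 their median was 0.05. Ldha, the A subunit of lactate dehydrogenase, was without overlap at -0.14 ± 0.08, and the liver and muscle regulator Pfkfb1, which was not, was at -1.11 ± 0.25 (adjusted p = 0.196). Here the KO labelled sedentary libraries weighed more: without numbers 2 and 3 of that group 23 of the 33 fatty acid genes were lower with a median of -0.04, with the atrial mean as a covariate 26 (median -0.08) and with the adipocyte mean 21 (median -0.16).

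Of 17 lipogenic genes 10 were higher. Fasn, fatty acid synthase, was without overlap under both labels, with 31.3, 31.4 and 27.9, then 22.2, 24.9 and 22.7 CPM in Flox, and 143, 46.1 and 90, then 40.7, 29.5 and 33.6 in KO. Library 1 of KO labelled sedentary was far above the others. The difference was 1.10 ± 0.22 (adjusted p = 0.136), or 1.62 and 0.57 under the 2 labels. Mlxipl, the carbohydrate-responsive factor that activates lipogenic genes in liver and fat, was without overlap in the other direction, at 36.6 to 47.1 CPM in Flox and 28.4 to 40.3 in KO (-0.31 ± 0.08, adjusted p = 0.201). Scd1, a desaturase abundant in fat, was at 1.45 ± 0.25 (adjusted p = 0.114) with 2.72 under the sedentary and 0.19 under the exercise label, where its libraries overlapped.

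Of 29 genes of insulin, IGF1 and mTOR growth signalling 20 were higher with a median of 0.04, and Phlda3 alone passed. Erbb2, the coreceptor for neuregulin, was without overlap at 9.09 to 11.7 CPM in Flox and 11.8 to 14.2 in KO (0.26 ± 0.08, adjusted p = 0.245). Igf1 was at 17.3 ± 3.89 CPM in Flox and 26.7 ± 5.85 in KO (0.63 ± 0.14, adjusted p = 0.167), with 0.99 and 0.26 under the 2 labels. The mTOR kinase gene itself was at 0.12 ± 0.10, and Akt1 at 0.05 ± 0.08. Of 15 genes for CITED proteins and their CBP/p300 partners only Cited4 passed. Cited2, the family member with the broadest expression, was at -0.01 ± 0.10, Crebbp at -0.15 ± 0.07 and Ep300 at 0.01 ± 0.09.

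Several lists had unlike medians under the 2 labels, a contrast that was not tested. Extracellular matrix genes were higher in 33 of 36 on average, yet their median was 0.56 under the sedentary and -0.09 under the exercise label, and 10 had 1 sign under both. With the atrial mean as a covariate 26 of the 36 were higher (median 0.05), and with the adipocyte mean 29 (median 0.335). Without KO labelled sedentary 2 and 3 all 36 were higher (median 0.26). Fibroblast markers had medians of 0.66 and -0.05, and atrial markers of 1.66 and 0.34. Interferon response genes were lower in 22 of 24 on average, with 0.01 and -0.41, and clock genes had -0.21 and 0.54. Endothelial markers were lower in 16 of 19, with medians of -0.11 and -0.34, among them Sox17 (-0.37 ± 0.13), Robo4 (-0.40 ± 0.14) and Kdr (-0.35 ± 0.14), each with an adjusted p over 0.3. None of the genes on these 6 lists was without overlap under both labels, a rule that only 1.21% of all genes tested met. Mesothelial markers, genes of the outer lining of the heart, had medians of 1.59 and 1.48 over 9 genes near the detection limit, none passing. Their median was -0.08 with the atrial mean as a covariate, 3.475 with the adipocyte mean and 0.70 without KO labelled sedentary 2 and 3. Upk3b is on both the atrial and the mesothelial list, so the atrial covariate removes part of that gene's difference by construction. With that covariate 8 of the 9 genes were lower. Among the mesothelial markers Krt18 was at 0.295 to 1.16 CPM in Flox and 0.67 to 5.71 in KO (1.92 ± 0.60, adjusted p = 0.286).

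Stress genes of the heart were higher in 16 of 20 with a median of 0.30. Ankrd1 was the only one of them without overlap under both labels, beside 1.21% of all genes tested. Nppa, the atrial natriuretic peptide, which is on the atrial list too, was at 1.55 ± 1.18 (adjusted p = 0.664). Gdf15, a stress-induced secreted factor, was at 1.08 ± 0.29 (adjusted p = 0.215), with 0.473 to 1.26 CPM in Flox and 0.979 to 3.52 in KO. Ventricular and general cardiomyocyte markers were lower in 18 of 24 with a median of -0.12, of -0.31 and 0.03 under the 2 labels. They were lower in 13 (median -0.02) with the atrial mean as a covariate and in 16 (median -0.27) with the adipocyte mean. Without KO labelled sedentary 2 and 3 they were lower in 17 (median -0.11). Myl2, the ventricular regulatory light chain, was at 7152 ± 1242 CPM in Flox and 4891 ± 1095 in KO (-0.57 ± 0.13, adjusted p = 0.184). Calcium handling and channel genes had a median of -0.05, of -0.16 and 0.13 under the sedentary and exercise labels. Kcnj5 was at 0.50 ± 0.16 and Kcnd2 at -0.36 ± 0.12, neither passing. The median of the list was -0.05 with the atrial mean as a covariate and 0.28 with the adipocyte mean, where 24 of 30 were higher. Without KO labelled sedentary 2 and 3 it was 0.04.

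**Figure D5:**
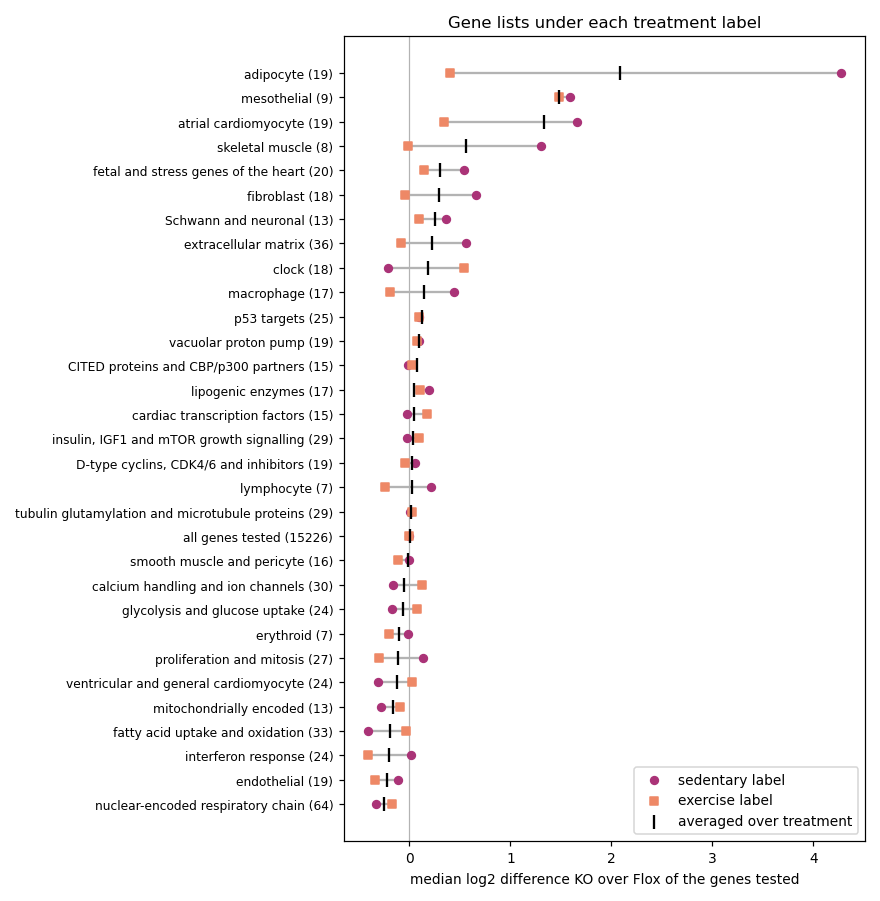
Median log2 difference KO over Flox of the genes tested on each list, under the sedentary label (circle), under the exercise label (square) and averaged (bar); numbers in brackets count the genes. The respiratory chain is below 0 under both labels at -0.33 and -0.18, though its library means overlapped between genotypes under the exercise label. The adipocyte median falls from 4.28 to 0.40 between the labels.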

How the data were processed

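RNA from 12 mouse whole hearts, 3 per group, was used. Per the labels' protocols, Trizol was used for extraction, a RiboZero kit for depletion of ribosomal RNA and an NEB kit for the libraries. The authors deposited a table of estimated counts per gene symbol, in which between 21.6% and 26.4% of the values of a library had a fractional part. FastQC and Salmon are named per the submitters' processing notes without versions, as are mm9 and mm10 without a role. Neither strand setting nor annotation is given in the sources used here, and Salmon divides reads between near-identical sequences.

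Estimated counts were rounded, and 1696 of 55874 entries naming vectors, phages, adaptors or linkers were left out. edgeR 4.0.16 (R 4.3.3) was run with filterByExpr by group, TMM, cell means of 4 groups, robust glmQLFit and Benjamini-Hochberg adjustment at 0.05 over 15226 genes. The contrast was the mean of the KO groups minus the mean of the Flox groups. SE came from the F statistic. A gene was called shared when all KO libraries lay on 1 side of all Flox libraries under each label, the same side under both. Positions are from GENCODE vM21 on GRCm38.

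Named genes were Cited4, every gene passing, the 12 higher and 12 lower shared genes of at least 1 CPM with the smallest p, shared list members with up to 4 of smallest p (unadjusted, under 0.05) per list, and 2 genes inside and outside the rule. 1 of the genes passing is not reported here. The members and gene lists were chosen with earlier results of these data known. Alternatives were DESeq2 1.42.0, limma 3.58.1 voom, RLE factors, other filters and models, marker covariates, a replicate block and left-out libraries. The vector split, the joint removal of KO labelled sedentary 2 and 3 and the phagemid comparison were added after the data were seen. On simulated counts of 14998 genes for this contrast, 56% of genes changed 1.5-fold, 88% changed 2-fold and 98% changed 4-fold were recovered, with 8 false among 179 calls. The changed genes were of at least 1 CPM. Genes were drawn independently, without the atrial and fat cell differences between libraries. With 179 calls the adjustment is easier to pass than with the 8 of the real data, so recovery there may be lower. The counts of replicates were farther apart than sampling noise (chi-square over its degrees of freedom from 17.7 to 89.9).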

Additional observations from a re-analysis of the deposited data

Results flagged for a closer look

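The phagemid vector entry, which no gene comparison used, averaged 37.2 CPM in KO and between 0 and 0.431 CPM in the single Flox libraries, so that it separated the genotypes as fully as Cited4 did. The labels do not say what the KO alleles or the aMHC-cre transgene contain besides the floxed gene and the recombinase, and the source of the matching reads was not tested.

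Ddr1 in Flox labelled exercise 3 was at 17.3 CPM, away from the other 5 Flox libraries at 21.4 to 23.9 (gap over range 0.663, where 0.625 is the 95% critical value for 6 values). It was the only such value among 51 groups of 6 examined, and chance gives about 5% of groups.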

How the results depend on the processing

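The main count of 8 genes (5 higher, 3 lower) was kept with RLE factors, the 1 CPM filter and without mitochondrially encoded genes, and was 7 with limma voom. It was 172 (101 and 71) with DESeq2, 49 (33 and 16) without a filter, 16 (10 and 6) with the vector split as a term, 5 (3 higher) without KO labelled sedentary 2 and 3, 2 (0 higher) with additive terms, genotype alone or the atrial mean, and 1 (0 higher, 1 lower) with the adipocyte mean. Genes passing under the sedentary label numbered 19, and 394 with DESeq2, 120 without a filter, 9 with voom or without KO labelled sedentary 2 and 3, 3 with the atrial and 0 with the adipocyte mean. Under the exercise label there was 1, and 10 with DESeq2, 4 without a filter and 0 with voom. Interactions numbered 0, but 50 with DESeq2 and 1 without a filter or without KO labelled sedentary 2 and 3.

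Leaving out 1 library gave 4 to 34 genes (2 to 27 higher, 2 to 14 lower), 2 to 479 under the sedentary and 1 to 2 under the exercise label, 0 to 2 interactions, 221 to 522 genes without overlap, and Cited4 at -9.26 to -7.39. A rule on 5 libraries is easier to meet, so those last counts exceed 184 by construction. Without KO labelled sedentary 2 and 3 the rule sets 1 KO library against 3 Flox libraries under that label, and 856 genes met it. The stricter rule of 6 against 6 was met by 70. Among named genes 6 turned, all with the adipocyte mean as a covariate: Nrg1 (-0.33), Serpinf1 (-0.22), Fbln5 (-0.12), Mfap5 (-0.35), Myl9 (-0.12) and Cacna1c (0.30). The cause was not tested.

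Replicate numbers did not pair the samples: 6 of 18 same-number pairs correlated above 0.1 (-0.374 to 0.399). With a replicate block 19 genes passed (12 higher, 7 lower), 37 under the sedentary label, the main 8 among the 19. Depth limits genes near 0 counts, such as Pon1 and Il11ra2. The simulation, which recovered 56% of 1.5-fold changes, altered only genes of at least 1 CPM, so it does not speak of genes near 0 counts.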
